A study of Mus musculus with 14 samples.

Results

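Voltage-gated calcium channels were described through 10 subunit genes, taken by symbol from the 23284 genes counted in each of 14 RNA sequencing libraries, each made from a primary small cell lung cancer of the mouse. They were 6 genes of the pore-forming alpha1 subunit (Cacna1a, Cacna1b, Cacna1c, Cacna1d, Cacna1e and Cacna1h), 2 of the alpha2delta subunit (Cacna2d1 and Cacna2d2) and 2 of the beta subunit (Cacnb3 and Cacnb4). All 10 were found in the files and all 10 had enough reads to be tested. The tumours came from genetically engineered mice: 7 libraries had the genotype Rb1/Trp53/Crebbp, called RPC here, and 7 had the genotype Rb1/Trp53, called RP here, so the deletion of both tumour suppressor genes is shared and Crebbp, a histone acetyltransferase, is the only labelled difference. Tumours carry numbers in the labels, which leave unsaid whether any 2 share a mouse, and p-values therefore speak only of the spread between these samples. The sources used here do not give the promoter or virus that drove deletion, the deleted exons, the strain or the age of the mice.

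A calcium channel that opens on strong depolarization is an assembly of an alpha1 pore with an alpha2delta and a beta subunit, which carry it to the cell surface and set how it opens. T-type channels, such as the one made from Cacna1h, open near the resting potential and can work without the auxiliary subunits. In neurons and neuroendocrine cells, calcium that enters through P/Q-, N- and L-type channels triggers the release of vesicles. In people with small cell lung cancer, antibodies against the P/Q-type channel are known as the cause of Lambert-Eaton myasthenic syndrome.

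Libraries held between 10060969 and 24052799 reads in genes in RPC and between 10965714 and 23678648 in RP. Neuroendocrine markers were present in every library: the 10 on the list summed to between 4319 and 7109 CPM (a gene's reads per 1000000 reads in genes) in RPC and between 5810 and 12896 CPM in RP, and none was at 0 in any library. RPC tumours 3, 5 and 6 stood apart on the first principal component, with scores from 127.8 to 157.1 against at most 19.97 in any other library. The summed level of 9 smooth muscle and pericyte markers was between 6.92 and 16.02 CPM in these 3, between 102.7 and 210.7 CPM in the other 4 RPC libraries and between 101.7 and 317.4 CPM in RP, and that of 7 macrophage and lymphocyte markers was between 3.70 and 7.69 CPM in these 3, between 206.3 and 1751 CPM in the other 4 and between 308.4 and 1219 CPM in RP. The 6 endothelial markers summed to 6.96, 81.0 and 1.94 CPM in RPC tumours 3, 5 and 6, between 44.0 and 284.2 CPM in the other 4 and between 81.5 and 239.3 CPM in RP, with 3 of the 6 (Cdh5, Emcn and Cldn5) at 0 in all 3 and RPC tumour 5 within the range of the other RPC libraries. The 6 fibroblast markers summed to 3.28, 119.8 and 5.46 CPM in these 3, between 274.9 and 575.3 CPM in the other 4 and between 220.8 and 877.9 CPM in RP. Results are therefore also given without them. Crebbp averaged 63.9 ± 4.44 CPM in RPC and 77.6 ± 14.8 CPM in RP (SD, n = 7 each). On the log2 scale the means differed by -0.23 (exact two-sided permutation test, p = 0.0565). Reads were summed over the gene, with exons that a deletion may leave in place, so the labels were not checked by this. In whole tumours, fewer cells of a type and less RNA per cell cannot be told apart.

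The binding protein encoded by Crebbp is named for CREB, a factor that binds the cyclic AMP response element (CRE), so the bases upstream of the channel genes are shown with that element marked. RefSeq promoters of the GRCm38.p6 assembly were found for 8 of the 10 genes, in 14 windows of 250 bases before a start site. Cacna1a and Cacna1h had no entry. The reads were counted on mm9, and these windows serve for sequence only. The core of that element is in 1 window each of Cacna1b, Cacna2d1 and Cacna1c (chr6:119196410-119196659, minus strand, 1 of its 3 windows, not printed). The 3 windows printed are those of Cacna1b and Cacna2d1, and the upstream start of Cacnb3, the gene with the second smallest p among the 10. Capitals mark the CRE core TGACG (or CGTCA, the same core on the other strand) and the E-box CAGCTG, a sequence bound by basic helix-loop-helix factors. The window of Cacnb3 holds neither.
Cacna1b (chr2:24763153-24763402, minus strand): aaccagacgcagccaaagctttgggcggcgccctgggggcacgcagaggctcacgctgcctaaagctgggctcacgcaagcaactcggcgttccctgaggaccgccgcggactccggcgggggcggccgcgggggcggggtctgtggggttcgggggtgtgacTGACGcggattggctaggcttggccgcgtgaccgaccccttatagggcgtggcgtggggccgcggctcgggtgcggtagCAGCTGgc
Cacna2d1 (chr5:15934441-15934690, plus strand): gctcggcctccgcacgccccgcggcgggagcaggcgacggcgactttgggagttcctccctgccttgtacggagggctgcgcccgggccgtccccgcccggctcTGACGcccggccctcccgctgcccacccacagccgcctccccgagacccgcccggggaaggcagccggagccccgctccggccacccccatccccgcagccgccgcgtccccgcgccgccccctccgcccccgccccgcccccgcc
Cacnb3 (chr15:98632078-98632327, plus strand): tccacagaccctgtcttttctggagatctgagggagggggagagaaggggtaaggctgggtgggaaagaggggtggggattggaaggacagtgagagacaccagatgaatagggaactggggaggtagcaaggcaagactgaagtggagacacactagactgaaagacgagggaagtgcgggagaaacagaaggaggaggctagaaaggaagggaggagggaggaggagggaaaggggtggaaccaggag

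The full element TGACGTCA, which reads the same on both strands, was in 0 of the 14 windows and in 1.55% of all 32851 promoter windows of this length. The core, which the full element contains, was in 3 of the 14 windows and in 17.8% of all windows. The E-box, which does not overlap it, was in 3 of the 14 and in 13.001% of all. These counts describe letters in a window and were not set against the expression values.

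Of the 10 channel genes, 0 passed the threshold over all genes (p under 0.05 after Benjamini-Hochberg adjustment of the edgeR quasi-likelihood test), where 2.21% of the 14804 tested genes did, 1.09% higher and 1.12% lower. The nearest was Cacna1h, the T-type pore gene, whose mean was 146.4 ± 105 CPM in RPC and 597.4 ± 327 CPM in RP (SD, n = 7 each). At an unadjusted p under 0.05 the count was 2 of 10, Cacna1h and Cacnb3, against 21.3% of all tested genes. Log2 fold changes of RPC over RP were below 0 in 7 of the 10, with a median of -0.07, against 49.8% of all tested genes and a median of 0.002. The count was 4 of 10, with a median above 0, without RPC tumours 3, 5 and 6 (0.0666), with a covariate for vessel, stromal and immune markers (0.0532) and without RP tumour 1 (0.014), and it was 5 of 10 without RPC tumour 3 (median 0.014). The ranges of the genotypes overlapped for all 10 genes, where 1.03% of tested genes did not overlap. The spread between tumours was wide, and the SD of log2 CPM over 14 libraries was above 0.44 in 9 of the 10. That value is the median of all 10040 genes whose mean lay within the range of means of the 10. In counts simulated for this comparison the same test found 33% of genes changed 2-fold and 72% of those changed 4-fold. A change of the smaller size was thus more often missed than called. The changed genes were drawn at random from the tested genes, so these shares are not rates for the 10 channel genes.

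**Figure D1:**
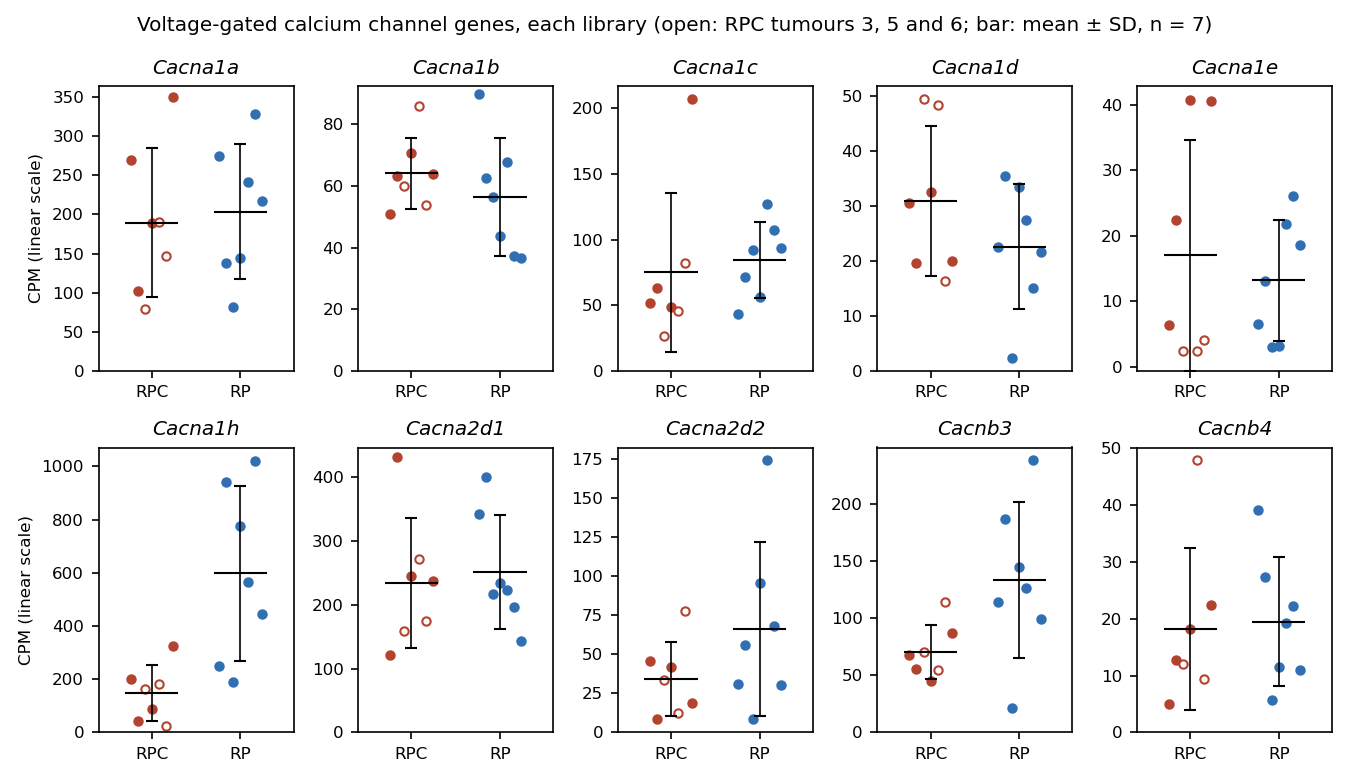
Level of each of the 10 channel genes in CPM (linear axis) in every library, RPC at the left and RP at the right of each panel. Points are libraries, open points are RPC tumours 3, 5 and 6, and bars are the mean ± SD of 7. Cacna1h was at most 326.5 CPM in RPC tumours, and all 7 lay under the RP median of 563.5 CPM.

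Cacna1h encodes the pore of a T-type channel, which passes calcium at voltages near rest. It was at 23.3 CPM in the lowest, 162.9 CPM in the median and 326.5 CPM in the highest RPC tumour, against 189.3, 563.5 and 1021 CPM in RP tumours. All 7 RPC values were under the RP median and 5 of 7 were under every RP value, but RPC tumours 1 and 7 lay within the RP range. RPC over RP came to -1.98 on the log2 scale with an SE of 0.53 (edgeR, adjusted p = 0.0611), which missed the threshold. The adjusted p was 0.00231 with DESeq2, where 9.67% of genes were called, and 0.0449 with limma-voom, where 3.4% were. Of 14 edgeR fits that left out 1 library, 2 passed the threshold, without RP tumour 3 (0.038) and without RPC tumour 7 (0.0335). Those fits called 6% and 5.12% of all genes. The highest adjusted p among the 14 fits was 0.123. Without RPC tumours 3, 5 and 6 the log2 fold change was -1.85 (SE 0.58, adjusted p = 0.224), where 0.0716% of genes were called. With the marker covariate it was -1.86 (SE 0.67, adjusted p = 0.344), where 0.027% were called. In RPC tumours 3, 5 and 6, where smooth muscle markers were at most 16.02 CPM in sum, Cacna1h was at 162.9, 182.2 and 23.3 CPM. Tpsg1, a gene that overlaps Cacna1h on the other strand, had at most 33 reads in any library, where Cacna1h had at least 265.

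Cacna1a encodes the pore of the P/Q-type channel, the main trigger of transmitter release at many synapses and the antigen named above. It was at 78.5, 189.0 and 350.5 CPM in the lowest, median and highest RPC tumour, against 81.2, 216.9 and 328.4 CPM in RP tumours. The ranges nearly coincided. The fold change was -0.07 (log2) with a 95% interval from -0.73 to 0.59 (edgeR adjusted p = 0.921).

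Cacna1b encodes the N-type pore, the other main trigger of release at nerve endings. It was at 51.0, 63.3 and 85.8 CPM in the lowest, median and highest RPC tumour, against 36.6, 56.5 and 89.7 CPM in RP tumours. It was the steadiest of the 10, with an SD of log2 CPM of 0.40 over all 14 libraries. For Cacna1b the fold change was 0.22 (log2) with a 95% interval from -0.19 to 0.63 (adjusted p = 0.563). Cacna1e, the R-type pore gene, was the least abundant of the 10 per unit length and varied far more. It was at 2.39, 6.44 and 40.8 CPM in RPC tumours, against 3.003, 13.04 and 26.0 CPM in RP tumours. Its 2 highest libraries were RPC tumours 4 and 7, and its 2 lowest were RPC tumours 3 and 5. The log2 fold change of Cacna1e was 0.37 (SE 0.71, adjusted p = 0.788) over all libraries and 1.06 (SE 0.62, adjusted p = 0.534) without RPC tumours 3, 5 and 6.

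The L-type pores of Cacna1c and Cacna1d carry lasting calcium currents in muscle, neurons and endocrine cells. Cacna1c was at 26.7, 52.1 and 207.3 CPM in the lowest, median and highest RPC tumour, against 43.4, 91.7 and 126.9 CPM in RP tumours. One RPC tumour, number 7, was above all others, and 6 of 7 RPC values were under the RP median. The fold change of Cacna1c was -0.18 (log2, SE 0.37, adjusted p = 0.802), and -0.63 without RPC tumour 7 (adjusted p = 0.184). Cacna1c is also the pore gene of smooth and heart muscle. It was at 26.7, 45.9 and 81.9 CPM in RPC tumours 3, 5 and 6, where smooth muscle markers summed to 7.26, 6.92 and 16.02 CPM. Heart muscle markers summed to at most 37.8 CPM in RPC and 100.9 CPM in RP, the last in RP tumour 3, where Cacna1c was at 91.7 CPM. Cacna1d was at 16.3, 30.6 and 49.5 CPM in RPC tumours, against 2.33, 22.6 and 35.5 CPM in RP tumours. The lowest value was that of RP tumour 3, far under all others. The fold change was 0.54 (log2, SE 0.43, adjusted p = 0.49). Chdh, which overlaps Cacna1d on the other strand, had between 14 and 121 reads in RPC and between 3 and 152 in RP, against at least 185 and 31 for Cacna1d. Since the use of strand is not given, reads of such pairs cannot be told apart.

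Set per kilobase of the longest annotated transcript, the 10 alpha1 genes summed to 59.5 ± 27.1 CPM per kilobase in RPC and 115.2 ± 44.2 CPM per kilobase in RP (SD, n = 7 each). The share of Cacna1h in that sum was 27.3 ± 13.2% in RPC and 59.4 ± 14.5% in RP, and that of Cacna1a was 40.0 ± 9.62% in RPC and 23.7 ± 10.1% in RP. Cacna1a was the leading alpha1 gene in 6 of 7 RPC tumours and Cacna1h in RPC tumour 3, whereas Cacna1h led in 6 of 7 RP tumours and Cacna1a in RP tumour 1. The P/Q-, N- and R-type genes together made up 54.7 ± 10.9% in RPC and 30.5 ± 12.6% in RP, and the L-type genes 16.1 ± 4.33% in RPC and 8.80 ± 3.37% in RP. The shares add to a whole, so a lower level of Cacna1h by itself gives the others a larger share. They are a description over the channel genes, with no test. Without RPC tumours 3, 5 and 6 the mean share in RPC was 26.2% for Cacna1h and 42.5% for Cacna1a.

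**Figure D2:**
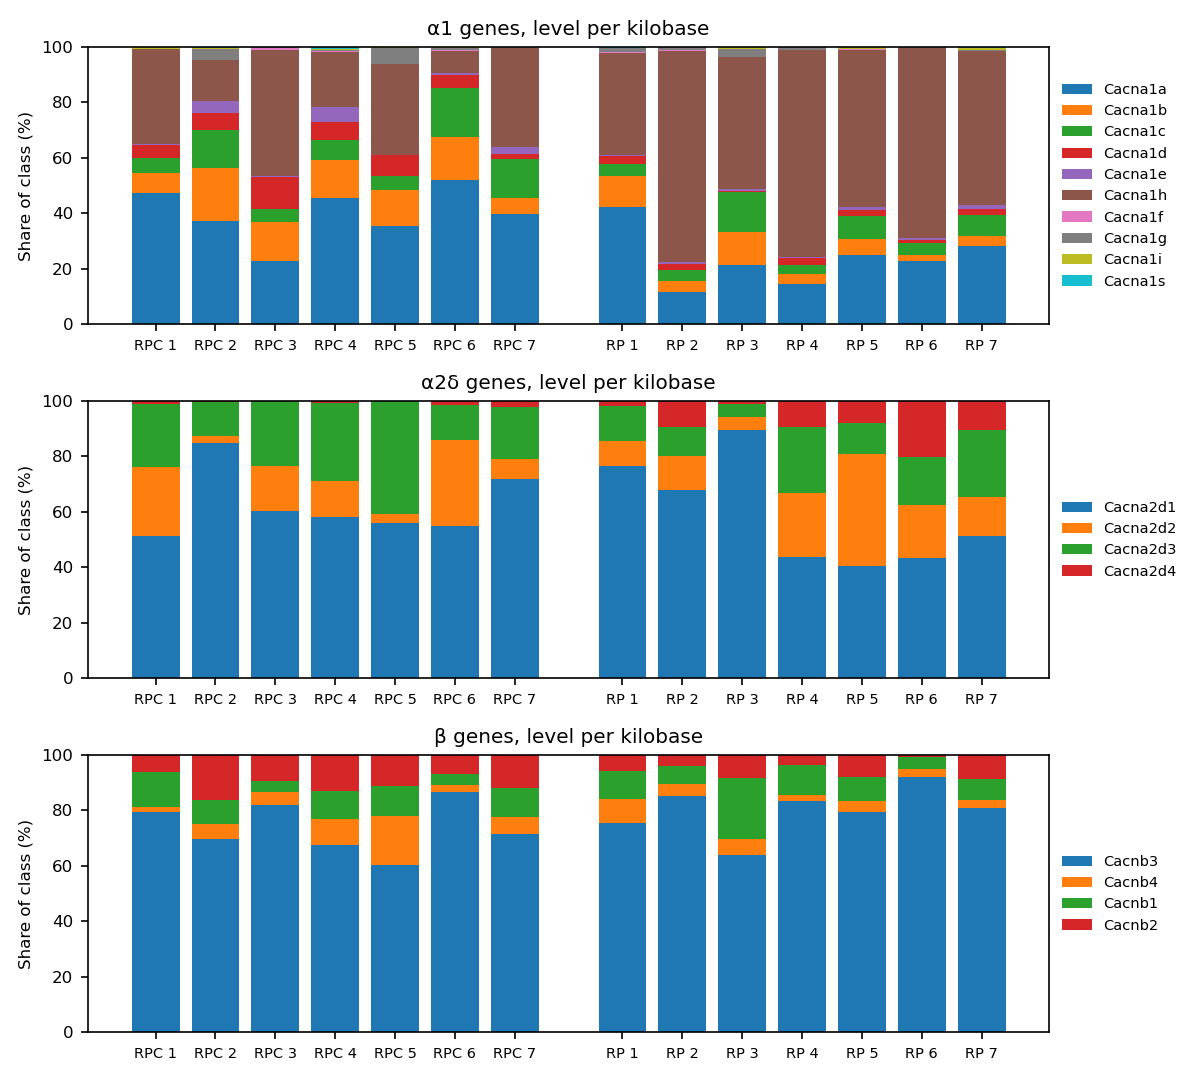
Share (%) of each gene in the summed level per kilobase of the alpha1, alpha2delta and beta genes, 1 bar per library, RPC at the left and RP at the right. Cacna1h held between 7.97% and 45.4% of the alpha1 level in RPC and between 36.9% and 76.1% in RP. Cacna2d1 and Cacnb3 led their classes in all 14 libraries, though Cacna2d1 (40.6%) and Cacna2d2 (40.4%) were nearly level in RP tumour 5.

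The level of Cacna1h divided by that of Cacna1a, both per kilobase, put the difference in each library on 1 scale. It was 0.153 in the lowest, 0.719 in the median and 1.998 in the highest RPC tumour, against 0.871, 2.25 and 6.59 in RP tumours. The ranges overlapped, with RPC tumours 3, 5 and 7 above RP tumour 1 and RPC tumour 3 also above RP tumour 7.

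**Figure D3:**
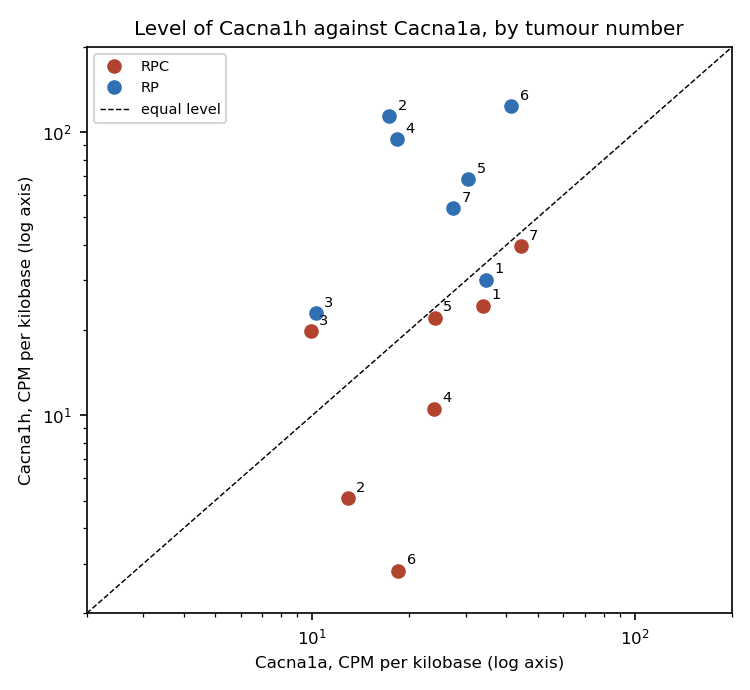
Level of Cacna1h against that of Cacna1a in CPM per kilobase (both axes logarithmic), 1 point per library with its tumour number, RPC and RP in 2 colours. The dashed line marks equal level, and 6 of 7 RPC tumours lie under it while 6 of 7 RP tumours lie above it.

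The alpha2delta subunits raise the number of channels at the surface, and those of Cacna2d1 and Cacna2d2 are the binding sites of gabapentin. Cacna2d1 was at 121.5, 238.1 and 431.3 CPM in the lowest, median and highest RPC tumour, against 143.1, 224.0 and 401.2 CPM in RP tumours. It made up 62.5 ± 11.8% of the alpha2delta level per kilobase in RPC and 59.1 ± 19.2% in RP. On the log2 scale RPC over RP was -0.08 with a 95% interval from -0.60 to 0.45 (adjusted p = 0.89). Cacna2d2 was at 8.86, 33.5 and 77.9 CPM in RPC tumours, against 8.71, 55.9 and 174.1 CPM in RP tumours. It was under the RP median in 6 of 7 RPC tumours, and both ranges began at about the same level. Its fold change was -0.88 (log2, SE 0.57, adjusted p = 0.393), and -0.42 without RP tumour 5, the highest library.

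The beta subunits bind the alpha1 subunit inside the cell and help it to fold and reach the membrane. Cacnb3 was at 44.8, 67.7 and 114.2 CPM in the lowest, median and highest RPC tumour, against 21.8, 126.7 and 239.0 CPM in RP tumours. All 7 RPC values were under the RP median, but RP tumour 3 was lower than every RPC tumour. For Cacnb3 the fold change was -0.87 (log2, SE 0.36, edgeR adjusted p = 0.181). It was -1.05 (SE 0.24, adjusted p = 0.0314) without RP tumour 3, where 6% of all genes were called. Of 14 edgeR fits that left out 1 library, only that 1 passed, and the highest adjusted p was 0.34. Without RPC tumours 3, 5 and 6 the log2 fold change of Cacnb3 was -1.04 (SE 0.44, adjusted p = 0.376). Cacnb3 supplied 73.9 ± 9.17% of the beta level per kilobase in RPC and 80.1 ± 8.82% in RP. Cacnb4 was far lower, at 4.95, 12.7 and 47.9 CPM in RPC tumours, against 5.70, 19.3 and 39.1 CPM in RP tumours. That of Cacnb4 was -0.04 (log2, SE 0.48, adjusted p = 0.968).

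Ordered by mean level per kilobase, the channel genes in RPC ran Cacna2d1 (31.6 ± 13.7), Cacnb3 (25.8 ± 8.62), Cacna1a (23.9 ± 11.97), Cacna1h (17.8 ± 12.8), Cacna1b, Cacna2d2, Cacna1c, Cacna1d, Cacnb4 and Cacna1e (1.14 ± 1.18 CPM per kilobase; SD, n = 7). No 2 neighbours in this order differed by more than the larger of their SDs. In RP the order ran Cacna1h (72.6 ± 39.8), Cacnb3 (48.8 ± 25.1), Cacna2d1 (33.8 ± 12.004), Cacna1a (25.7 ± 10.9), Cacna2d2, Cacna1c, Cacna1b, Cacnb4, Cacna1d and Cacna1e (0.884 ± 0.621 CPM per kilobase; SD, n = 7). There only Cacna1a and Cacna2d2, Cacna1b and Cacnb4, and Cacna1d and Cacna1e differed by more than that. Both orders rest on the longest annotated transcript, with its untranslated parts. That length was 8225 bases for Cacnb4, 2734 for Cacnb3 and 8230 for Cacna1h, where the longest coding length was 1557, 1452 and 7077 bases. The place of a gene, above all across classes, therefore depends on the length chosen, and the order by coding length is not given here. RP tumour 3 had the lowest RP value of Cacna1a, Cacna1d, Cacna1e, Cacna1h, Cacna2d2, Cacnb3 and Cacnb4. The 10 neuroendocrine markers summed to 5810 CPM there, against at least 8002 CPM in the other RP tumours, and the part of this in the low values was not tested.

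Of 16 further genes with a calcium channel subunit name, called other channel subunits here, 11 could be tested. The gamma genes among them were taken by name, and whether they serve in the channel was not tested. Only Cacna2d4, an alpha2delta gene best known from photoreceptors, passed the threshold, where 1.12% of all tested genes were called lower. It was at 0.0516, 2.10 and 5.93 CPM in the lowest, median and highest RPC tumour, against 2.03, 34.4 and 72.0 CPM in RP tumours. The log2 fold change was -3.77 (SE 0.87, edgeR adjusted p = 0.0396). All 7 RPC values were under the RP median, with overlap at RP tumour 3. The call of Cacna2d4 held in 4 of 14 fits that left out 1 library (adjusted p from 0.0206 to 0.0899) and was lost with limma-voom (0.0784), with the tumour number as a block (0.0616, log2 fold change -3.91), without RPC tumours 3, 5 and 6 (0.152, log2 fold change -3.36) and with the marker covariate (0.275). Cacng5, of the gamma family, was between 2.74 and 23.4 CPM in RPC and between 0.138 and 9.64 CPM in RP, at 2.19 on the log2 scale (SE 0.83, adjusted p = 0.152); it passed with DESeq2 (0.0453) and without RP tumour 1 (3.27, adjusted p = 0.0489). The beta gene Cacnb1 was between 4.37 and 16.05 CPM in RPC and between 9.31 and 23.5 CPM in RP (-0.65, SE 0.29, adjusted p = 0.211). The remaining 8 tested genes had adjusted p from 0.264 to 0.959. Among the better expressed, Cacna2d3 was between 19.8 and 98.2 CPM in RPC and between 5.63 and 63.2 CPM in RP, Cacnb2 between 9.81 and 26.5 CPM in RPC and between 2.71 and 23.7 CPM in RP, Cacng4 between 9.87 and 41.4 CPM in RPC and between 4.43 and 28.0 CPM in RP, and Cacng7 between 2.98 and 102.2 CPM in RPC and between 3.67 and 33.9 CPM in RP. The T-type gene Cacna1g was between 0.956 and 32.6 CPM in RPC and between 2.13 and 11.5 CPM in RP, and Cacng2 between 0 and 13.9 CPM in RPC and between 0 and 22.004 CPM in RP. Low levels were seen for Cacna1i, at most 3.91 CPM in RPC and 7.01 CPM in RP, and Cacna1f, at most 1.49 CPM in RPC and 3.28 CPM in RP. Under the filter on low counts were Cacna1s (at most 1.89 CPM in RPC and 2.82 CPM in RP), and Cacng1, Cacng3, Cacng6 and Cacng8, none above 0.207 CPM in RPC or 0.597 CPM in RP.

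**Figure D4:**
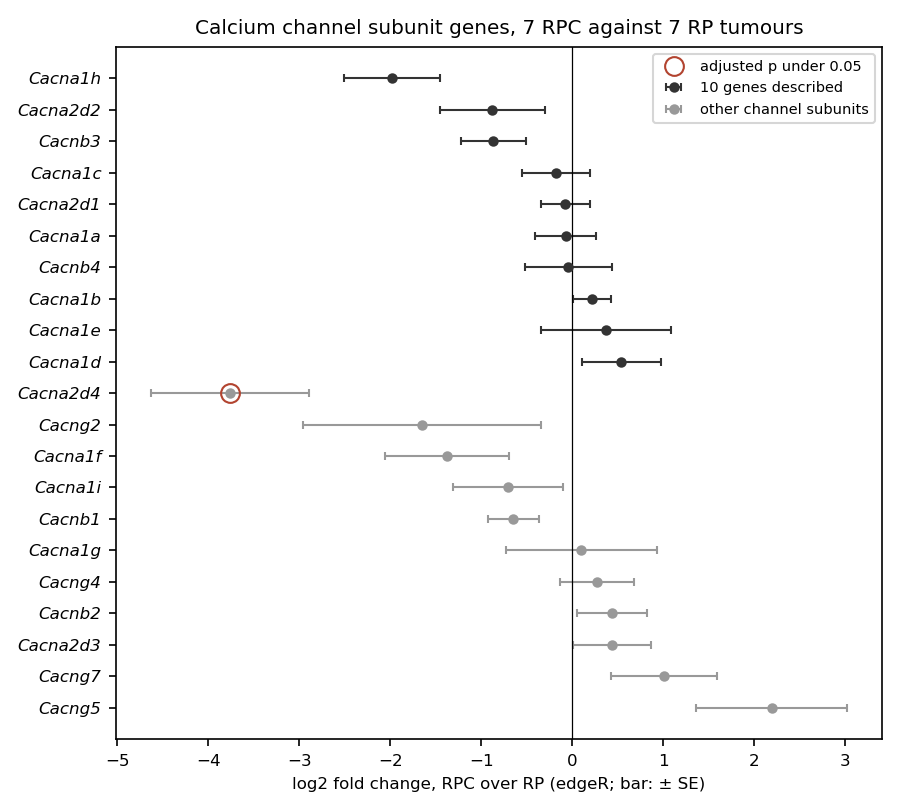
Log2 fold change of RPC over RP with its SE (edgeR, 7 libraries each). Dark points are the 10 genes described, and grey points the 11 others with a channel subunit name that could be tested. Only Cacna2d4 (ringed, -3.77) was past the adjusted threshold, and Cacna1h (-1.98) was the lowest of the 10.

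Genes that work with the channels were read from lists, and 0 of their tested members passed the threshold in either direction (edgeR, over all genes). This held for 12 channel modulators, 26 genes of the active zone and vesicle release, 9 sodium channel genes, 8 genes of other calcium entry, 13 genes of calcium stores and pumps and 19 calcium signalling targets. At an unadjusted p under 0.05 these lists had 4, 8, 1, 1, 5 and 8 members, against 21.3% of all tested genes. With DESeq2, which called 9.67% of all genes, these lists held 1, 3, 1, 1, 3 and 2 called members, and with limma-voom, which called 3.4%, they held 0, 1, 1, 1, 0 and 0. Among sodium channels, Scn8a, a neuronal type, averaged 75.4 ± 11.4 CPM in RPC and 59.8 ± 19.97 CPM in RP (0.39 on the log2 scale, SE 0.20, edgeR adjusted p = 0.27). In the release machinery Rph3al, a Rab effector of secretory cells, was at -1.06 (log2, SE 0.28, adjusted p = 0.0577), Erc2, an active zone scaffold, at 1.59 (SE 0.48, adjusted p = 0.0874) and Rimbp2, which ties channels to the active zone, at -1.88 (SE 0.65, adjusted p = 0.125). In calcium stores and pumps 12 of 13 values were below 0 in the main fit, against 49.8% of all tested genes. Their median was -0.69, against 0.002 over all genes. Whether this tilt holds without the RPC tumours that stood apart, or with the marker covariate, was not tested for this list. The list of stores and pumps included Atp2a3, a pump of the endoplasmic reticulum, at 222.0 ± 209 CPM in RPC and 751.2 ± 319 CPM in RP (adjusted p = 0.139). It also held Atp2a2 (-0.31, adjusted p = 0.137) and the release channel Ryr1 (-2.17, adjusted p = 0.131). Ryr1 was at a low level, with a mean of 0.759 CPM in RPC and 3.62 CPM in RP.

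Among modulators, Stac2, an adaptor of L-type channels, was at -2.10 on the log2 scale (SE 0.58, adjusted p = 0.0681), Cabp1, a calmodulin-like protein, at -0.62 (adjusted p = 0.146) and Rem1, a small GTPase that inhibits the channel, at -2.07 (adjusted p = 0.154). Of the other entry routes Orai3, a store-operated pore gene, was at -1.01 (SE 0.30, adjusted p = 0.0827), the leak channel Nalcn at 0.53 (adjusted p = 0.291) and Orai2 at -0.51 (adjusted p = 0.382). Among signalling targets the kinase gene Camk4 was at 1.42 (adjusted p = 0.102), the factor Nfatc1 at -1.56 (adjusted p = 0.109) and the kinase gene Camkk1 at -0.72 (adjusted p = 0.122) on the log2 scale. The neuroendocrine markers also held 0 called genes of 10, with Calca at -2.11 (adjusted p = 0.237) and Ncam1 at 0.47 (adjusted p = 0.29). At an unadjusted p under 0.05 the count was 1, against 21.3% of all tested genes. DESeq2 and limma-voom called 1 each, where they called 9.67% and 3.4% of all genes.

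Markers of other cells held 0 called genes with edgeR, DESeq2 and limma-voom. At an unadjusted p under 0.05 edgeR had 1 each among smooth muscle, immune and lung epithelial markers, against 21.3% of all tested genes. Log2 fold changes were below 0 in 49.8% of all tested genes. All 9 smooth muscle and pericyte markers had log2 fold changes below 0, with a median of -1.28. All 4 tested heart muscle markers did (median -1.64), as did 5 of 6 endothelial (-0.52), 5 of 6 fibroblast (-0.72), 6 of 6 macrophage and lymphocyte (-0.94) and 4 of 6 lung epithelial markers (-0.22). The part of these cells in the level of any channel gene was not tested beyond the fits given above.

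The libraries that gave each gene its pattern were compared with 13419 other genes, as a description. Over the 14 libraries the log2 CPM of Cacna1h was nearest to that of Wnt9a (Pearson r = 0.89) and Egln3 (0.89), Cacna1e to Cyp26b1 (0.85) and Bfsp1 (0.85), Cacna2d2 to Impdh1 (0.81) and A630020A06 (0.79), and Cacna1d to Tmem145 (0.90) and Tbc1d13 (0.89). The same pairs gave r from 0.76 to 0.90 over the 11 libraries without RPC tumours 3, 5 and 6. These are the highest of many values and carry no p.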

How the data were processed

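Polyadenylated RNA was sequenced after TRIzol extraction and a NEBNext Ultra library kit, per the labels' protocols. The authors' deposited files hold raw read counts per gene symbol. The tools were HTSeq 0.6.1, TopHat2 2.0.12 and bcl2fastq 1.8.2 on mm9, per the submitters' processing notes. The sources used here do not give their settings, the annotation or whether strand was used. Counts over whole genes do not separate splice forms. Rows that name no gene were left out (no feature 15.1% to 20.5%, multiple alignments 8.44% to 11.2% and ambiguous 0.883% to 1.09% of a file).

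CPM is a count per 1000000 reads in genes, with no further scaling. Tests used edgeR 4.0.16 in R 4.3.3: filterByExpr (minimum count 10, minimum total 15), TMM (factors from 0.906 to 1.07) and a quasi-likelihood F test between RPC and RP over 14 libraries, adjusted over all tested genes by the Benjamini-Hochberg method. The SE is the size of the log2 fold change over the root of F, and a 95% interval is 1.96 SE to each side. Log2 CPM used TMM and a prior count of 2. Lengths are the longest GENCODE M21 transcript. The test was tried on simulated counts of 14612 genes for this comparison, where it found 33 of 100 changed 2-fold and 72 of 100 changed 4-fold, with 1 false among 106 calls.

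No 2 libraries of a genotype were repeats (chi-square per degree of freedom at least 62.1 in 42 pairs). Alternatives were other scalings and filters, DESeq2 1.42.0, limma-voom (limma 3.58.1), the tumour number as a block, a term for non-tumour markers, and libraries left out. The members, gene lists and the choice to leave out RPC tumours 3, 5 and 6 were made with earlier results of these data known. Named were the 10 genes, the other channel subunits, Crebbp, the 3 genes of smallest p in each list of channel partners (some of them are not reported here), and the 2 nearest patterns of the 4 members with the largest SD of log2 CPM and a mean of at least 1 CPM, leaving out predicted genes. Tpsg1 and Chdh were named for their overlap, and markers for their part in the libraries that stood apart.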

Additional observations from a re-analysis of the deposited data

Results flagged for a closer look

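In 46 sets of 7 values, over the channel genes and Crebbp where a library of the set reached 1 CPM, 8 single libraries lay far from the others, by a gap to the next library past the 95% critical value of Dixon's test. For independent sets of normally distributed values, chance gives about 1 in 20 sets. These sets share libraries and hold CPM on a linear scale, and each flagged library was the highest of its set. The rate by chance is therefore not known here. Flagged among the 10 genes were Cacna1c in RPC tumour 7 (207.3 CPM, next 81.9) and Cacnb4 in RPC tumour 5 (47.9 CPM, next 22.4). RPC tumour 5 was also far above the others for Cacna1g, a T-type pore gene (32.6 CPM, the next at 10.7), Cacng2 (13.9 CPM, the next at 2.99) and Cacng7 (102.2 CPM, the next at 43.4). The rest were Cacna1s in RPC tumour 4 (1.89 CPM, the next at 0.486) and in RP tumour 7 (2.82 CPM, the next at 0.95), and Cacng5 in RP tumour 1 (9.64 CPM, the next at 1.65).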

How the results depend on the processing

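The total of 327 called genes became 1431 with DESeq2, 503 with limma-voom, 74 with the tumour number as a block, 11 without RPC tumours 3, 5 and 6, 4 with the marker covariate, and between 51 and 898 when 1 library was left out. The count of channel genes called became 1 with DESeq2 and 1 with limma-voom, Cacna1h in both, and 0 to 2 when 1 library was left out. Of 230 alternative values for the 10 genes, 203 kept their direction and their side of the threshold, 5 passed it and 22 changed sign. Since 0 of the 10 genes were called in the main fit, no call could be lost, and most of the 203 were values not called in either fit. With limma-voom and the block Cacna1e was at -0.15 and -0.0725. Without RPC tumours 3, 5 and 6, and with the covariate, Cacna1a was at 0.18 and 0.20, Cacna1c at 0.10 and 0.10, and Cacna2d1 at 0.0365 and 0.00938. With 1 library left out Cacna1a ran from -0.25 to 0.075, Cacna1e from -0.0441 to 0.63, Cacna2d1 from -0.27 to 0.0472 and Cacnb4 from -0.53 to 0.23; Cacna1h ran from -2.26 to -1.79 and Cacnb3 from -1.05 to -0.67. The cause was not tested. Crebbp differed by -0.30 to -0.17 with 1 library left out (exact p from 0.00175 without RP tumour 6 to 0.111, and under 0.05 also without RP tumour 2 or 4). Correlations of same-numbered tumours ran from -0.05 to 0.32, over 0.1 in 3 of 7 pairs. Of the 7 RPC tumours, 3 correlated best with their own number. This does not settle whether the numbers mark pairs, and the main fit did not treat them so. With the block Cacna1h was at -2.08 (edgeR adjusted p = 0.162). With coding lengths, an alternative added after the files were seen because no protein table was at hand, the mean share of Cacna1h was 24.9% in RPC and 56.2% in RP.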
